A study of Mus musculus with 6 samples.

Results

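The SOCS family comprises the inhibitors Cish and Socs1 to Socs7, and it was examined together with the serine/threonine kinase genes Pim1 and Pim2. The genes were chosen by symbol from the table of LSK cell transcripts as readouts of STAT5 and STAT3 signalling. All 10 of them were among the 16403 genes of the table, and all 10 were among the 12564 genes tested. LSK cells are the lineage-negative, Sca-1-positive, Kit-positive fraction of bone marrow, the one that contains blood stem cells and the first multipotent progenitors. One group was C57BL/6 mice with ligature-induced periodontitis (LIP), in which a ligature tied around a tooth causes inflammation of the gum and loss of the bone below it. The other group was C57BL/6 mice without a ligature (NL). Marrow of both groups was taken on day 7, and the labels name no other allele or agent and give no age. Each group had 3 libraries of sorted cells, and each library pooled 3 mice, so p-values measure the spread between pools. The libraries held between 17780810 and 18841090 counts each.

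Cytokines such as thrombopoietin, IL-3, GM-CSF, G-CSF and IL-6 bind receptors that carry JAK kinases, and the kinases phosphorylate STAT5 or STAT3. The STAT dimers enter the nucleus and switch on, among other genes, Cish and some SOCS genes, such as Socs2 and Socs3. The SOCS proteins bind phosphotyrosines or JAK kinases through an SH2 domain, and they recruit a ubiquitin ligase through a C-terminal SOCS box. Those induced by STAT factors thereby form a negative feedback loop. Pim1 and Pim2 are also STAT targets in blood cells, but they encode kinases that promote survival and growth. Levels of the STAT-induced mRNAs are therefore commonly read as a record of recent cytokine signalling in progenitors. They do not measure STAT phosphorylation, which was not analysed here.

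The promoter sequence of Cish, a STAT5 target, is shown beside the promoter sequence of Socs3, a STAT3 target. RefSeq promoters on GRCm38.p6, from 250 bases before to 50 bases after each start, were found for 6 of the 10 genes. The palindromic STAT motif TTCNNNGAA, which reads the same on both strands, was searched in them. The Cish sequence is chr9:107296409-107296678 on the plus strand, and it ends 20 bases past the start. The Socs3 sequence is chr11:117969367-117969616 on the minus strand, and it ends at the base before the start. The table's Socs3 start, and with it the whole Socs3 sequence shown, lies inside the gene's annotated interval, 117966079 to 117970336. Capitals mark the matches.
Cish: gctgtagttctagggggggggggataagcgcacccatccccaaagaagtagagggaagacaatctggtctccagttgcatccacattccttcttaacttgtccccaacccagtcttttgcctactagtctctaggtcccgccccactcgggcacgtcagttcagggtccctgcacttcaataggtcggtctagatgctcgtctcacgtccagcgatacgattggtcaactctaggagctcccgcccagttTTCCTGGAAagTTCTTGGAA
Socs3: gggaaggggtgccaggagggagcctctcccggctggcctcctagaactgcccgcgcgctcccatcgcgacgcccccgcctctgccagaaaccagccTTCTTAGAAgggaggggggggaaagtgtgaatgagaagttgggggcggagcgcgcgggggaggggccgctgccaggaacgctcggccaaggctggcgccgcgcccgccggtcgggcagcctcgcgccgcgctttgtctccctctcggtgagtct
Cish held 2 matches, TTCCTGGAA at 107296659 to 107296667 and TTCTTGGAA at 107296670 to 107296678, the first of them at the annotated start. Socs3 held the match TTCTTAGAA at 117969512 to 117969520. Of 32851 promoters of the same length, 8.3% held at least 1 match and 0.457% held 2 or more. The promoters of Socs1, Socs4, Pim1 and Pim2 held no match, which says only that these letters are not in this window. Socs2, Socs5, Socs6 and Socs7 were not in the promoter table.

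LSK cells of LIP mice had less Cish, Socs2 and Socs5 mRNA and slightly more Pim1 mRNA than those of NL mice. The other 6 genes did not pass the test. A call was an adjusted p below 0.05 in edgeR's quasi-likelihood test, with the Benjamini-Hochberg adjustment made across the whole table of tested genes. Of the 10 genes 3 were called lower, where 15.8% of all tested genes were, and 1 was called higher, where 14.1% were. With library totals in place of TMM factors (edgeR's scaling between libraries), these backgrounds were 1301 genes lower and 2756 higher, against 1984 and 1776. Of the 10 genes 4 were called in either direction, where 29.9% of all tested genes were, so the share of calls is not a result about the family. Their median log2 fold change was -0.04, beside -0.00072 over all tested genes. Groups did not overlap for 5 of the 10 genes, against 40.9% of all tested genes. LIP lay below NL for 4 of them, against 21.0% of all tested genes, and above NL for 1, against 19.9%.

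**Figure D1:**
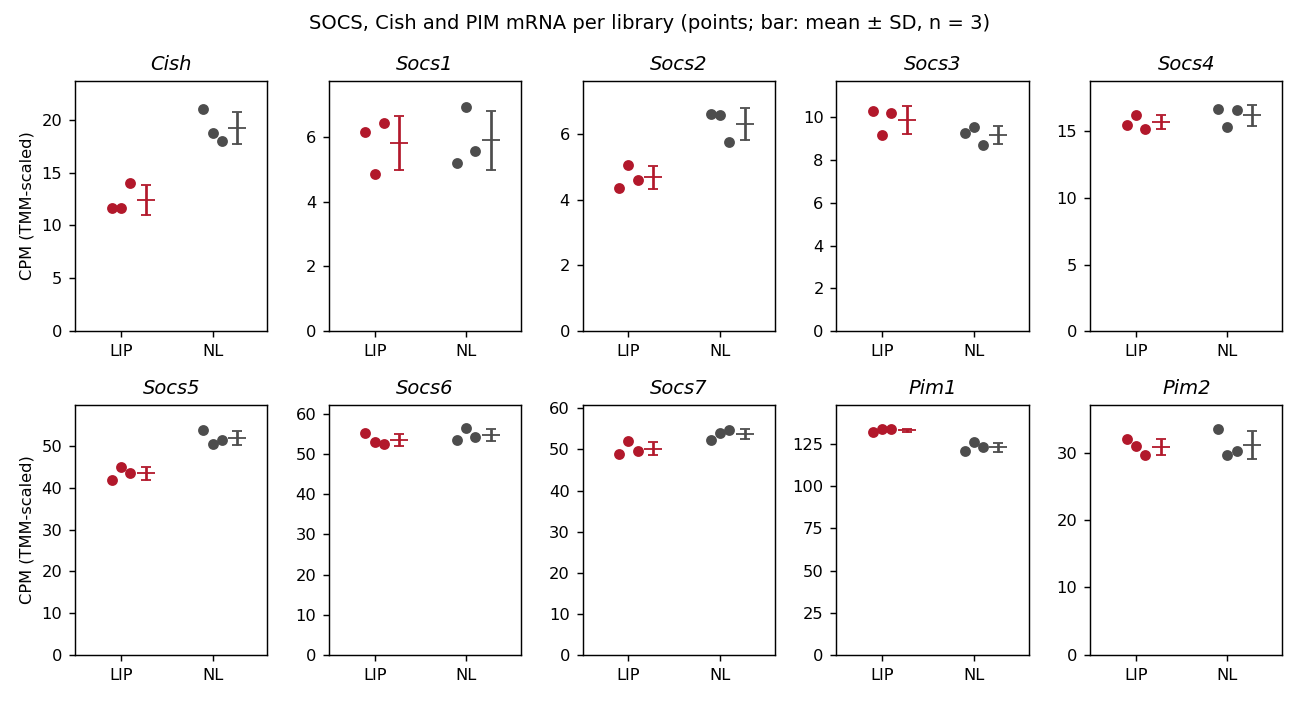
Levels in CPM (TMM-scaled, linear axis from 0) of each of the 10 genes in the 3 LIP and 3 NL libraries, with points for libraries and bars for mean ± SD. All LIP points lie below all NL points for Cish, Socs2, Socs5 and Socs7 and above them for Pim1.

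Cish encodes the SOCS box inhibitor that is induced by STAT5 and acts on receptors such as those for erythropoietin, IL-3 and IL-2. Its gene is at chromosome 9, 107296659 to 107302784. The 3 LIP libraries had 11.6, 11.6 and 14.0 CPM (counts scaled to library size with TMM factors), from 210, 222 and 268 counts, and the 3 NL libraries 21.0, 18.7 and 18 CPM, from 368, 329 and 317 counts. Every LIP library lay below every NL library, and LIP replicate 3 was the nearest to NL. The means were 12.4 ± 1.38 CPM in LIP and 19.2 ± 1.53 CPM in NL (SD, n = 3 each), so Cish fell by 35.4% in LIP. The log2 fold change was -0.63 ± 0.08 (SE), with a 95% interval of -0.79 to -0.47 and an adjusted p of 1.24e-08 (edgeR). Leaving out each library gave -0.73 to -0.56, and Cish kept its call in all 19 alternative fits. GENCODE M21 places exons of 2 genes, Gm17040 and Gm17041, on the opposite strand within Cish exons. No source used here says whether counting was strand-specific, so their reads could not be told apart from those of Cish.

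Socs2 encodes the inhibitor best known for restraining growth hormone signalling, and it is also induced by STAT5. Its gene is at chromosome 10, 95383903 to 95417321. It had 4.37, 5.07 and 4.60 CPM in LIP (79, 97 and 88 counts), against 6.60, 6.58 and 5.75 CPM in NL (116, 116 and 101 counts). The groups did not overlap, with LIP replicate 2 and NL replicate 3 closest to each other. Socs2 fell by 25.8% in LIP, with a log2 fold change of -0.43 ± 0.13 (SE), an interval of -0.68 to -0.18 and an adjusted p of 0.00654 (edgeR). Its call was lost with DESeq2, at an adjusted p of 0.0718 with the same fold change.

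Socs5 belongs to the branch of the family with long N-terminal regions and has been linked to IL-4 and EGF receptor signalling, rather than to STAT5 feedback. Its gene is at chromosome 17, 87107278 to 87137647. The LIP libraries had 41.8, 45.0 and 43.6 CPM, and the NL libraries 53.9, 50.6 and 51.5 CPM. The groups stood apart in CPM, and within each group the libraries lay close together. Means were 43.5 ± 1.61 CPM in LIP and 52.0 ± 1.74 CPM in NL (SD, n = 3 each). Socs5 fell by 16.3%, with a log2 fold change of -0.26 ± 0.05 (SE) and an adjusted p of 3.44e-05 (edgeR).

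Pim1 encodes the PIM kinase induced by both STAT5 and STAT3, and its gene is at chromosome 17, 29490785 to 29496111. It had 132, 134 and 134 CPM in LIP, against 121, 126 and 123 CPM in NL. Each LIP library exceeded each NL library, by a margin of a few CPM, and the LIP libraries were nearly equal. Pim1 rose 1.08-fold in LIP, a log2 fold change of 0.12 ± 0.04 (SE), with an interval of 0.04 to 0.19 and an adjusted p of 0.0107 (edgeR). Without NL replicate 1 the call was lost, with a log2 fold change of 0.10 and an adjusted p of 0.0538. An antisense transcript, Gm26885, overlaps Pim1 exons on the opposite strand.

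The 6 genes that did not pass the test include the strongest JAK inhibitors of the family. Socs1, which blocks JAK kinase activity and is induced by interferons, had 6.14, 4.86 and 6.43 CPM in LIP, against 5.18, 6.92 and 5.58 CPM in NL. The groups overlapped, and with 91 to 123 counts in a library the interval of the log2 fold change was wide, from -0.28 to 0.24. Socs3, which is induced by STAT3 and restrains IL-6 and G-CSF receptors, had 10.3, 9.15 and 10.2 CPM in LIP, against 9.28, 9.53 and 8.71 CPM in NL. LIP replicate 2 lay within the NL range. Its log2 fold change was 0.11 ± 0.10 (SE), with an interval of -0.09 to 0.30 and an adjusted p of 0.433 (edgeR).

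Socs4, the closest relative of Socs5, had 15.7 ± 0.51 CPM in LIP and 16.2 ± 0.786 CPM in NL, with an adjusted p of 0.695 (edgeR). Socs6, which binds the KIT receptor, had 53.5 ± 1.47 CPM in LIP and 54.8 ± 1.46 CPM in NL, with an adjusted p of 0.638. The interval of its log2 fold change, -0.13 to 0.06, was among the narrower ones. Socs7 had 49.0, 52.0 and 49.6 CPM in LIP, against 52.4, 54.1 and 54.8 CPM in NL. The Socs7 groups did not overlap, but the difference had a p of 0.0397 and an adjusted p of 0.106 (edgeR). With an offset for transcript length Socs7 was called lower, at -0.15 on the log2 scale and an adjusted p of 0.00959. Pim2, the other PIM kinase, had 30.8 ± 1.22 CPM in LIP and 31.1 ± 2.05 CPM in NL, with an adjusted p of 0.896 and an interval of -0.13 to 0.10. For these genes a p above the threshold does not show that the groups were alike, and the intervals give what remained possible.

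**Figure D2:**
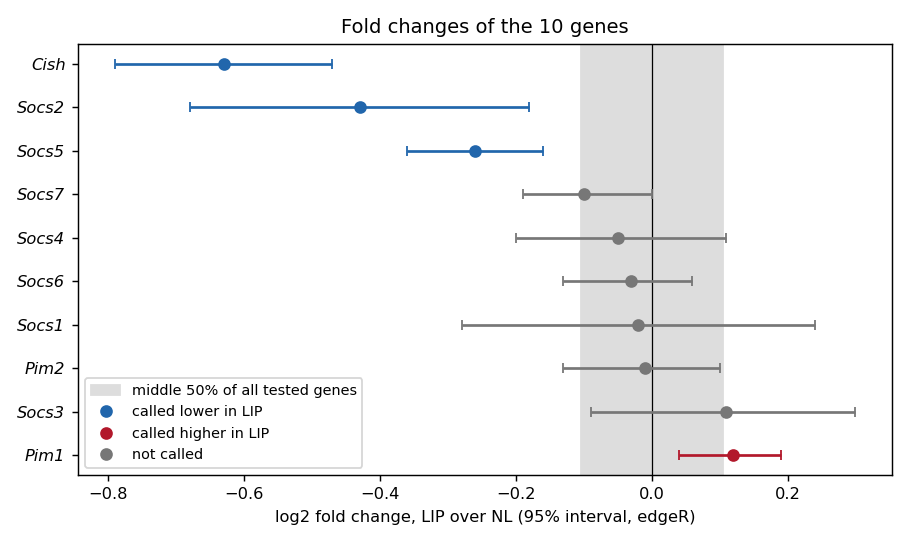
Log2 fold changes of the 10 genes, LIP over NL, as points with 95% intervals from edgeR, and a grey band for the middle 50% of all tested genes. Cish, Socs2 and Socs5 lie left of the band, and the interval of Pim1 lies right of 0.

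Levels of different genes were compared per length, in the authors' TPM values. In both groups Pim1 was highest, with a level of 143 ± 3.40 TPM in LIP and 121 ± 1.93 TPM in NL, at percentile 92.0 of tested genes in LIP and 90.9 in NL. Pim2 followed with 28.2 ± 1.14 TPM in LIP and 26.1 ± 1.86 TPM in NL, then Socs6, Socs5, Socs4 and Socs7. Socs4 and Socs7 did not differ beyond their spread in either group. At the low end Cish and Socs1 changed places. Socs1 had 8.87 ± 1.08 TPM and Cish 7.59 ± 0.792 TPM in LIP, where their ranges overlapped, while in NL Cish with 10.7 ± 0.862 TPM stood above Socs1 with 8.23 ± 1.22 TPM. Socs3 and Socs2 came last in both groups, at 6.68 and 3.79 TPM in LIP and at 5.67 and 4.73 TPM in NL.

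**Figure D3:**
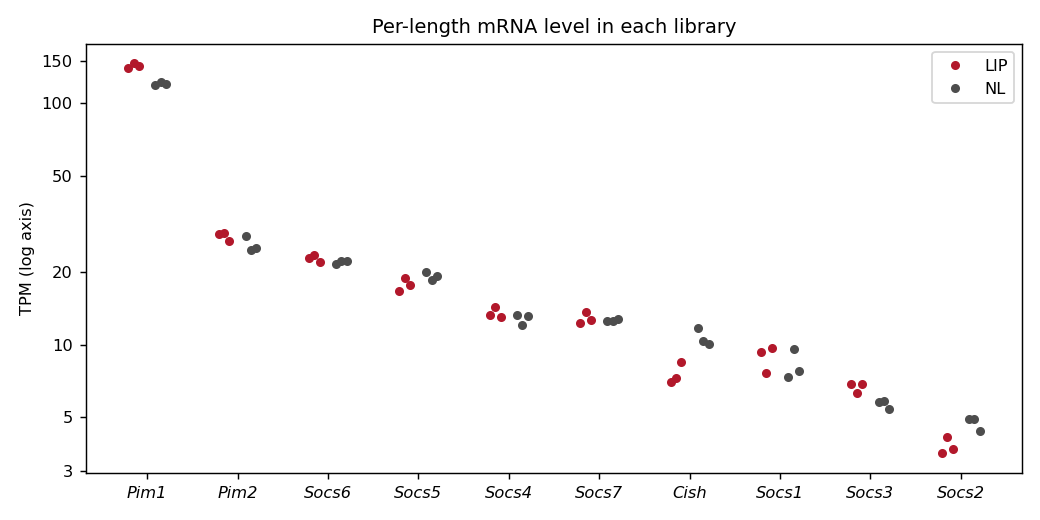
TPM of the 10 genes in each library on a log axis, LIP left of NL within each gene, with genes ordered by their NL mean. Pim1 lies between 118.83 and 146.23 TPM and Socs2 between 3.54 and 4.91 TPM over all 6 libraries.

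A ratio of 2 genes within a library does not depend on the scaling between libraries. The ratio of Cish to Socs3, in TPM, was 1.02, 1.15 and 1.24 in the LIP libraries, against 2.03, 1.77 and 1.87 in the NL libraries. The groups did not overlap in this ratio, which was chosen after the values were seen and is given without a test. Cish made up 7.64%, 7.59% and 9.02% of the summed TPM of the 8 SOCS box genes in LIP, against 12.1%, 10.8% and 10.6% in NL. The summed TPM itself overlapped between the groups, from 91.8 to 95.7 TPM in LIP and from 94.8 to 97.0 TPM in NL. The ratio of Cish to Socs2 overlapped as well, at 1.98, 1.75 and 2.31 in LIP and 2.38, 2.12 and 2.30 in NL. The ratio of Pim1 to Pim2 was 4.83, 5.06 and 5.30 in LIP and 4.22, 4.96 and 4.76 in NL, also with overlap.

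TPM differs from CPM in its scaling here, since the median tested gene was 0.124 higher in LIP on the log2 TPM scale. On that scale 46.1% of tested genes had all LIP libraries above all NL libraries, and 5.96% had all of them below. The Socs3 groups did not overlap in TPM, although its CPM groups overlapped. Socs3 had 6.88, 6.31 and 6.85 TPM in LIP and 5.77, 5.86 and 5.39 TPM in NL. The Socs5 groups, apart in CPM, overlapped in TPM. Socs5 had 16.66, 18.85 and 17.63 TPM in LIP and 20.01, 18.61 and 19.18 TPM in NL. A limma fit of log2 TPM called Socs3 higher, at 0.23 with an adjusted p of 0.0368, and no longer called Socs5, at -0.12 with an adjusted p of 0.112. With the library medians of log2 TPM made equal, Socs3 stood at 0.11 with an adjusted p of 0.356. That fit called Cish, Socs2 and Socs5 lower and Pim1 higher, at -0.62, -0.44, -0.24 and 0.12.

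**Figure D4:**
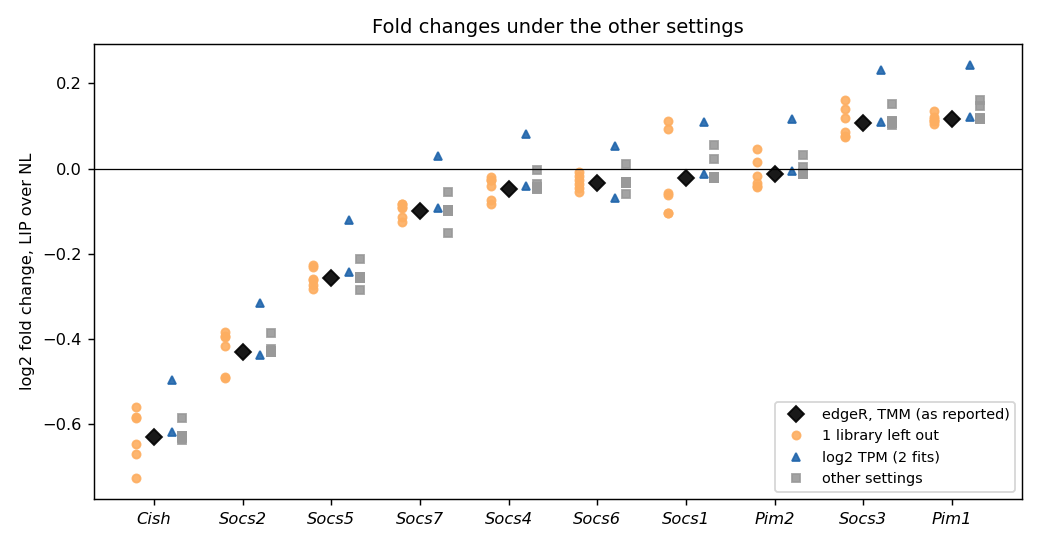
Log2 fold changes of the 10 genes, LIP over NL, in the reported edgeR fit (diamonds) and in the alternative fits, with genes ordered by their reported value. Cish, Socs2 and Socs5 stay below 0 and Pim1 and Socs3 above 0 in every fit shown, and the other 5 genes have fits on both sides of 0.

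The genes whose library pattern was closest to a family member were found by Euclidean distance of log2 CPM, centred on each gene's mean, over the 6 libraries and 9920 candidate genes. For Cish they were Insig1, Hspa12b and Banp, at distances of 0.181, 0.233 and 0.233. Insig1, which restrains sterol synthesis, had a log2 fold change of -0.59 and Banp one of -0.67. For Socs2 they were Nxt2, Ddx4 and Dnajb9, at 0.117, 0.153 and 0.184. For Pim1 they were Adam15, Chd8 and Atp6ap1, all within 0.0272, and for Socs3 they were Stx4a, Glb1l and Smco4, all within 0.0624. These distances describe 6 libraries in 2 groups, and the closeness follows in part from a like difference between the groups.

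Upstream of the family, cytokine receptor genes were called higher more often than lower. Of 32 tested receptor genes 10 were higher in LIP and 2 lower, with a median log2 fold change of 0.07. These and the lists that follow can be read against the 14.1% of all tested genes called higher and the 15.8% called lower. Csf2rb, the shared beta chain of the GM-CSF, IL-3 and IL-5 receptors, had 82.9 ± 1.93 CPM in LIP and 61.0 ± 2.60 CPM in NL, a log2 fold change of 0.44. Csf2rb2, the IL-3-specific beta chain, rose by 0.63 and can share reads with Csf2rb, which it closely resembles. The G-CSF receptor gene Csf3r rose by 0.27 and the interferon-gamma receptor gene Ifngr1 by 0.27. Each of these 4 had an adjusted p of at most 2.09e-07 (edgeR) and kept its call in all 19 alternative fits. The 2 lower calls, Il10rb and Il11ra1, stood at -0.14 and -0.12 and were lost in 6 and 16 of the 19 alternative fits. Il10rb lost its call without NL replicate 2 or 3 (adjusted p of 0.0826 and 0.0639), and Il11ra1 without NL replicate 2 or 3 or LIP replicate 1 or 2 (0.087 to 0.207, edgeR).

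Of the 11 JAK and STAT genes 2 were higher and 1 was lower in LIP, with a median of 0.05. Stat2, a transcription factor of interferon signalling, fell by 0.21, with an adjusted p of 9.61e-04 (edgeR), and it lost its call on log2 TPM, at -0.08. Tyk2 and Jak3, kinases of interferon and common-gamma receptors, rose by 0.13 and 0.10, and each lost its call in 4 of the 19 alternative fits. Without NL replicate 1 the adjusted p of Tyk2 was 0.0528, and that of Jak3 was 0.0693 without LIP replicate 3 and 0.0529 without NL replicate 3 (edgeR). The STAT factors that act on the family were not called. Stat5a had 160 CPM in LIP and 152 CPM in NL, with an adjusted p of 0.116 (edgeR). Stat5b had 216 and 212 CPM with 0.537, and Stat3 197 and 188 CPM with 0.103 (edgeR). For Stat5a and Stat3 every LIP library lay above every NL library, as for 19.9% of all tested genes. Before adjustment their p was 0.0451 and 0.0385 (edgeR).

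Other inhibitors of the pathway gave 4 higher calls and none lower among 12 genes, with a median of 0.03. Ptprc, which encodes the phosphatase CD45, rose by 0.16, the ubiquitin ligase gene Cbl by 0.15, the phosphatase gene Ptpn1 by 0.13 and Sh2b3, the adaptor LNK that restrains the thrombopoietin receptor, by 0.14. The calls of Ptprc and Ptpn1 held in all 19 alternative fits, while those of Cbl and Sh2b3 were lost in 3 and 6. Cbl was at 0.10 without NL replicate 3 (adjusted p of 0.0624), and Sh2b3 was at 0.06 without LIP replicate 3 (0.271) and at 0.14 without NL replicate 1 (0.0784, edgeR). Ptpn6, the gene of the phosphatase SHP-1, had 269 CPM in LIP and 270 CPM in NL.

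The SOCS box works through a ubiquitin ligase made of elongins B and C, a cullin and a RING protein. Of 12 genes for this machinery 6 were called lower and none higher, with a median of -0.16. Rbx1, a RING protein gene, had 57.3 ± 2.76 CPM in LIP and 72.4 ± 1.80 CPM in NL, a log2 fold change of -0.34 with an adjusted p of 1.62e-08 (edgeR). The elongin genes Eloc and Elob fell by 0.28 and 0.23. Uba3, a subunit of the enzyme that activates NEDD8, fell by 0.25. Cul5, the cullin most used by SOCS proteins, had 55.0 CPM in LIP and 57.1 CPM in NL, with an adjusted p of 0.41. With the offset for transcript length, or on the log2 TPM scale, the calls of Elob and Rnf7 were lost, and Elob reached 0.03 in one of these fits. On log2 TPM the calls of Uba3, at -0.12, and of Cul2, at -0.06, were lost as well, which left 2 lower calls. The fit with the length offset and the log2 TPM fit each called 1 gene of this list higher. Rbx1 and Eloc kept their calls in all 19 fits.

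Other known STAT5 targets showed 4 lower calls and none higher among 12 genes, with a median of 0.00. Tfrc, the transferrin receptor gene, had 104 ± 1.57 CPM in LIP and 118 ± 4.73 CPM in NL, a log2 fold change of -0.18, and lost its call on log2 TPM, at -0.05. The cyclin genes Ccnd2 and Ccnd1 fell by 0.11 and 0.14, and the survival gene Mcl1 by 0.09. Their calls were lost in 4, 7 and 8 of the 19 alternative fits, and Ccnd2 and Mcl1 turned positive in 1 fit each. Without NL replicate 3 the adjusted p of Ccnd2 was 0.0836. Ccnd1 lost its call without LIP replicate 1 or 2 or NL replicate 1 (0.0501 to 0.0624), and Mcl1 without LIP replicate 1 or 2 or NL replicate 1 or 2 (0.0506 to 0.107, edgeR). On the log2 TPM scale the list had 5 higher and 0 lower calls, so its direction depends on scaling.

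Other STAT3 targets went both ways, with 3 of 15 higher, 3 lower and a median of -0.05. Hp, the haptoglobin gene, had 105 ± 7.14 CPM in LIP and 76.1 ± 3.83 CPM in NL, a log2 fold change of 0.47. Lrg1, another acute-phase gene, rose by 0.67 at a low level of 2.03 CPM in LIP and 1.27 CPM in NL, but 5 of 19 alternative fits did not call it. Without LIP replicate 1, LIP replicate 2 or NL replicate 1 its adjusted p was 0.0704, 0.0747 and 0.15 (edgeR). Fos, an immediate-early transcription factor gene, fell by 0.31 and Nfkbiz, which encodes a nuclear regulator of NF-kappa-B, by 0.33. Nfkbiz lost its call without LIP replicate 2, at -0.26 and an adjusted p of 0.0561. Among Pim3 and the substrates of PIM kinases, 1 of 12 was higher and 2 were lower, with a median of -0.04. Cdkn1b, which encodes the cell cycle inhibitor p27, fell by 0.23 and the chemokine receptor gene Cxcr4 by 0.14, while Map3k5, which encodes the kinase ASK1, rose by 0.21. On log2 TPM both lower calls were lost, with Cdkn1b at -0.10 and Cxcr4 at -0.02. Pim3 itself had 27.6 CPM in LIP and 28.2 CPM in NL, with an adjusted p of 0.74 (edgeR).

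**Figure D5:**
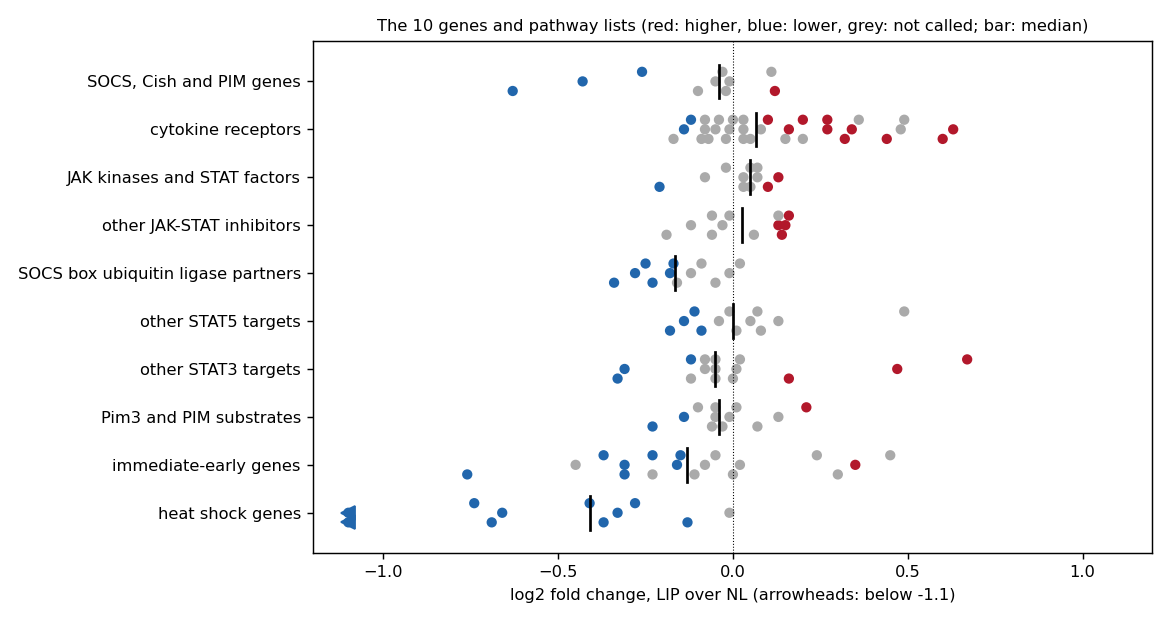
Log2 fold changes, LIP over NL, of the 10 genes and of the tested genes in each pathway list, coloured by call, with a bar at each list's median. The bar of the heat shock list, at -0.41, lies farthest from 0, and Hspa1a and Hspa1b lie beyond the axis.

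Cish and some SOCS genes, such as Socs3, respond to stimuli within a short time, so heat shock and immediate-early genes were read beside them. Of 11 tested heat shock genes 10 were lower in LIP and none was higher, with a median of -0.41. Hspa1b had 2.58 ± 0.588 CPM in LIP and 81.8 ± 0.895 CPM in NL, and its near-identical copy Hspa1a 0.926 ± 0.221 CPM in LIP and 35 ± 1.27 CPM in NL. Of 18 immediate-early genes 7 were lower and 1 was higher, with a median of -0.13. Jun had 125 ± 3.75 CPM in LIP and 211 ± 1.30 CPM in NL. The part of these differences in the levels of Cish, Socs2 and Socs5 was not tested. The labels used here name no sorting or extraction batch.

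Markers of other cell types also moved with the groups. Summed over the list, and scaled to library totals, neutrophil markers had 323 to 343 CPM in LIP libraries and 219 to 235 CPM in NL libraries, with 8 of 10 tested markers higher. Monocyte markers had 933 to 965 CPM in LIP and 717 to 740 CPM in NL, with 6 of 7 higher, and B cell markers 82.7 to 86 CPM in LIP and 63.9 to 67.1 CPM in NL, with 5 of 8 higher. T and NK cell markers had 156 to 169 CPM in LIP and 134 to 143 CPM in NL, with 3 of 7 higher. Most of this last sum came from Nkg7, with TMM-scaled means of 140 ± 7.23 CPM in LIP and 125 ± 4.29 CPM in NL. Sums of erythroid, megakaryocyte and mast cell markers overlapped between the groups, and no marker was at 0 in all libraries. Ly6g, a defining neutrophil marker, had at most 1 count in a LIP library and at most 3 in an NL library. The part of these cells in the family's values was not tested, and in bulk samples fewer cells of a type and less RNA per cell cannot be told apart. The stem and progenitor markers were present, with Kit at 581 CPM in LIP and 512 CPM in NL and Ly6a, which encodes Sca-1, at 37.0 CPM in LIP and 38.7 CPM in NL.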

How the data were processed

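PolyA-selected RNA of sorted LSK cells was read from both ends (100 bp) on a BGISEQ platform, per the labels' protocols, which give a mean of 45.0 M reads. The submitters' processing notes list STAR, HTSeq and GRCm38 with neither version nor role. The authors deposited estimated counts, FPKM values and TPM values for each gene and library, as the column headers name them. Which tool made the estimates is not given in the sources. All 10 genes had whole counts in all libraries. Library totals ranged from 17780810 to 18841090 counts, where 3 counts equal 0.159 to 0.169 CPM, counting error only. The 6 columns of group means were not used.

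The test had been planned for whole or rounded counts, and the estimated counts were rounded. Genes were filtered with filterByExpr and scaled with TMM factors in edgeR 4.0.16 (R 4.3.3). LIP was compared with NL by the robust quasi-likelihood test, with group as the only term, and the procedure was tested on simulated data. SE and 95% intervals come from the test statistic. Replicates of a group differed by more than sampling noise, with a chi-square per gene from 1.87 to 2.77. The labels do not say that replicate numbers pair the libraries, so no pairing was used in the main fit. Same-numbered libraries had correlations of their deviations from -0.113 to 0.0295. With 3 libraries in a group these values cannot show whether libraries were collected in pairs.

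The genes and lists were chosen with earlier results of these data known. All 10 genes are named, with up to 4 called genes of smallest p in each pathway list, or up to 2 uncalled ones where fewer than 2 were called. The genes of nearest pattern (average log2 CPM of at least 3) are also named. Stat5a, Stat5b, Stat3, Ptpn6, Cul5, Rnf7, Pim3, Il10rb, Il11ra1, Cul2, Kit, Ly6a, Ly6g and Nkg7 fall outside this rule. Their values had been seen when they were chosen. Alternatives were DESeq2 1.42.0, limma-voom (limma 3.58.1), other scalings and filters, a replicate block, an offset per library for the lowess trend (span 0.3) on effective length from the deposited counts and FPKM, and leaving out each library. Fits of log2(TPM + 0.1) were added after the data were seen. Gene positions are from RefSeq on GRCm38.p6.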

Additional observations from a re-analysis of the deposited data

How the results depend on the processing

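The falls of Cish, Socs2 and Socs5 and the rise of Pim1 kept their direction in all 19 alternative fits, and the calls lost are named with the genes in the report. The family had 3 lower calls in each fit without a single library, 2 with DESeq2 and on log2 TPM, and 4 with the length offset. It had 0 higher calls at an adjusted p below 0.01 (Pim1, 0.0107), 2 on log2 TPM, and 0 to 1 when each library was left out. The motif with 1 more N between its arms was in 0 of the promoters, against 2 genes with TTCNNNGAA. With the replicate block the family had 1 higher and 3 lower calls, the pathway lists 21 and 33, and all genes 1750 and 1979. No call of the 10 genes changed with it.

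Signs of uncalled genes turned. Socs1 was 0.022 with library totals alone, 0.056 with the length offset, 0.11 on log2 TPM and -0.10 to 0.11 without single libraries. Socs6 was 0.011 with library totals and 0.053 on log2 TPM, Socs4 0.081 and Socs7 0.03 on log2 TPM. Pim2 was 0.031 with library totals, 0.0026 with the length offset, 0.12 on log2 TPM and -0.043 to 0.045 without single libraries. All genes had 2756 higher and 1301 lower calls with library totals, 1091 and 1285 with DESeq2, 1148 higher at 0.01, and 4642 higher and 547 lower on log2 TPM. The pathway lists had 50 higher and 15 lower on log2 TPM, against 21 and 34, and a scaling shift of 0.124 goes with that fit. By list, the lower receptor calls ranged from 0 to 3, the JAK and STAT calls from 0 to 8 higher and 0 to 2 lower, and the other STAT5 targets from 0 to 5 higher and 0 to 4 lower. The STAT3 targets ranged from 1 to 4 in both directions, and the ligase genes from 0 to 1 higher and 2 to 8 lower. The PIM substrates ranged from 1 to 5 higher and 0 to 3 lower. The other inhibitors ranged from 2 to 7 higher and the immediate-early genes from 4 to 8 lower. The cause was not tested. At 79 to 123 counts in a library, Socs1 and Socs2 have a counting error of 9.49% to 10.7%, which limits what their tests can show.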

Other observations

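The spread between libraries can be set beside counting error. Counting alone gives a coefficient of variation of 6.55% in LIP and 5.44% in NL for Cish, whose libraries varied by 11.1% in LIP and 7.96% in NL. For Socs2 counting gives 10.7% in LIP and 9.49% in NL, and its libraries varied by 7.66% and 7.73%, below that level. Socs1 varied by 14.3% in LIP and 15.5% in NL, where counting gives 9.58% and 9.82%. Pim1 in LIP varied by 0.789%, where counting gives 2.0%, so its 3 LIP libraries lay closer together than counting error alone would place them on average. Socs5, Socs6 and Socs7, at 756 to 1015 counts in a library, varied by 2.26% to 3.70%, near their counting error of 3.15% to 3.50%.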
